A study of Rattus norvegicus with 7 samples.

Results

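Synapses of hippocampus and hypothalamus are held together by adhesion proteins of the neurexin, neuroligin and leucine-rich repeat transmembrane (LRRTM) families, and the transcript levels of 9 genes of these families were examined here: Nrxn2, Nrxn3, Nlgn1, Nlgn2, Nlgn3, Lrrtm1, Lrrtm2, Lrrtm3 and Lrrtm4. They were picked by symbol, and 8 of the 9 were found in both deposited tables, among 15805 symbols that the tables share. Lrrtm1 was not analysed here. Where a symbol had more than 1 locus, the locus with the highest mean was taken.

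Neurexins are presynaptic receptors, each made in long and short forms and in many splice variants. Neuroligins and LRRTM proteins stand on the postsynaptic side, bind neurexins across the cleft and compete for some of the same sites. Nlgn1 protein is known from excitatory synapses, Nlgn2 protein from inhibitory synapses, and Nlgn3 protein from both kinds. LRRTM proteins are known as partners of neurexins at excitatory synapses, where they help to hold AMPA receptors. The values below are per gene locus and do not separate long from short forms or splice variants.

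RNA sequencing covered 7 libraries of male Sprague Dawley rats that were 2 months old when the diet began and were then given an omega-3 diet with docosahexaenoic acid (DHA), a fatty acid of brain membranes, over 6 weeks. The groups were DHA hippocampus (n = 4) and DHA hypothalamus (n = 3). The study asked how dietary DHA acts on these brain regions. Chow-fed rats were not analysed here. Every value therefore refers to DHA-fed animals, and nothing below measures the diet. The labels do not say whether libraries of the same number in both tissues came from the same rat. The spread given is that between libraries.

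Deposited FPKM, fragments per kilobase scaled for sequencing depth, summed to between 370020 and 391349 in hippocampus and to between 443335 and 471484 in hypothalamus, and sequencing depth is unknown. Each tissue came as a table of its own, so tissue and table cannot be told apart, and differences between tissues carry no p-value. The labelled tissues matched their markers. Summed FPKM of Slc17a7, Neurod6 and Itpka lay between 801 and 1154 in hippocampus and between 2.27 and 3.75 in hypothalamus, while Hcrt, Pmch, Avp and Oxt summed to between 2.84 and 4.79 in hippocampus, with Oxt listed at 0 in all 4 libraries, and to between 5444 and 7981 in hypothalamus. Choroid plexus genes varied most among hippocampus libraries, where Ttr, Kl and Clic6 summed to between 34.1 and 5891 FPKM. Replicate 1 read lowest at a second row of Nrxn3 in hippocampus and of Lrrtm2 in hypothalamus, though not at a second hypothalamic row of Nrxn2, and differences of the 8 genes are also given without replicate 1 of both tissues.

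The stretches around the annotated starts of the 3 neuroligin genes are shown first, since Nlgn2 was the most abundant of the 8 genes in hippocampus and the least abundant in hypothalamus and since the strand of Nlgn2 is referred to beside its values. RefSeq promoter windows, 250 bases before to 50 after a start in the GRCr8 assembly, were found for 6 of the 9 genes. Those of Nlgn1 (chr2:110930627-110930926, minus strand), Nlgn2 (chr10:55056529-55056828, minus strand) and Nlgn3 (chrX:70469228-70469527, plus strand) read as follows, with every CG dinucleotide in capitals.
Nlgn1: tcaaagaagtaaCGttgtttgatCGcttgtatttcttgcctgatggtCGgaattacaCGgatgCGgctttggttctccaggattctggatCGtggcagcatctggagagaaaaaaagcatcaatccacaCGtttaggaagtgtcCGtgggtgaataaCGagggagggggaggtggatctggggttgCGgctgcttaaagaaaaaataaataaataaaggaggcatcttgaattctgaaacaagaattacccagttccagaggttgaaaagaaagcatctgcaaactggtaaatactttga
Nlgn2: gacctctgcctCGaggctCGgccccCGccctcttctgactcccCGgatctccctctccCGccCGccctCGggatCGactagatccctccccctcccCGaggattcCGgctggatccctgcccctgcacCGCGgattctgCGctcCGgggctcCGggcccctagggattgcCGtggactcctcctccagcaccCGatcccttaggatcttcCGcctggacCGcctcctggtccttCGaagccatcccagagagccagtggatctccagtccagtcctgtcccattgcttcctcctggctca
Nlgn3: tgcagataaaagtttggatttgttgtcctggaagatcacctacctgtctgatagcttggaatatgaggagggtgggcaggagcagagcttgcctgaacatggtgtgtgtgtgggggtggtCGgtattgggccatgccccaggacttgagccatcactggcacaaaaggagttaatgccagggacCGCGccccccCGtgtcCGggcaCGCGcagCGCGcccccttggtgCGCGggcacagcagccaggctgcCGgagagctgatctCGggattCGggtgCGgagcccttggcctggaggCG
The Nlgn1 window, like that of Lrrtm4, lies inside the span of the gene and not at its outermost annotated start. The Nlgn1 window held 10 CG dinucleotides and 43.3% G or C, against 20 and 67.3% for Nlgn2 and 16 and 61.7% for Nlgn3. Over all 27457 windows of the table the median was 7 CG dinucleotides and 52.3% G or C. The windows of Lrrtm2, Lrrtm3 and Lrrtm4, which are not printed, held 6, 10 and 7 CG dinucleotides and between 43.0% and 47.7% G or C. In hippocampus, Nlgn2 and Nlgn3, the genes with G- and C-rich windows, read at least 33.1 FPKM in every library, and the other 4 read at most 22.8 FPKM. In hypothalamus this order did not hold, since Nlgn2 read 0.456 to 1.87 FPKM, below the other 5 genes, at a row whose strand block differs from that of the gene (described with Nlgn2). This is a description of 6 genes, and starts in rat brain were not measured.

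All 8 genes read above 1 FPKM in each hippocampus library and 7 or 8 of them in each hypothalamus library. In hippocampus the order by mean FPKM was Nlgn2 (52.3 ± 6.69, SD, n = 4), Nrxn3 (40.2 ± 7.55), Nlgn3 (35.1 ± 2.10), Nrxn2 (34.5 ± 7.18), Nlgn1 (16.4 ± 4.93), Lrrtm4 (12.5 ± 2.06), Lrrtm2 (9.96 ± 2.09) and Lrrtm3 (7.45 ± 1.27). Neighbours in this order overlapped in their library values, except Nrxn2 and Nlgn1. Nlgn2 stood at the 91.5th percentile of all symbols in the table by mean FPKM and Lrrtm3 at the 59.1st. In hypothalamus the order was Nrxn2 (142 ± 55.8, SD, n = 3), Nrxn3 (57.2 ± 11.2), Nlgn3 (30.8 ± 5.43), Nlgn1 (12.4 ± 0.805), Lrrtm4 (11.9 ± 1.88), Lrrtm3 (11.2 ± 1.06), Lrrtm2 (8.86 ± 6.60) and Nlgn2 (1.31 ± 0.750). Nrxn2, Nrxn3 and Nlgn3 did not overlap with their neighbours in this order, Nlgn1, Lrrtm4, Lrrtm3 and Lrrtm2 overlapped with one another, and Nlgn2 lay below all of them. Nrxn2 stood at the 96.8th percentile there and Nlgn2 at the 35.4th.

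**Figure D1:**
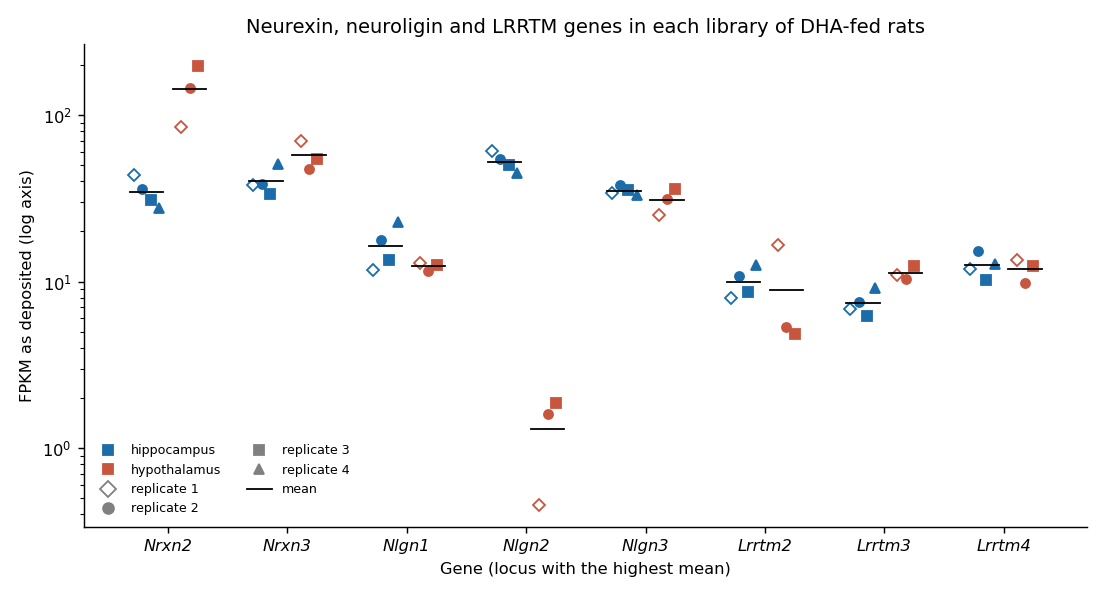
FPKM as deposited (vertical, log axis) of the 8 genes in 4 hippocampus libraries (blue) and 3 hypothalamus libraries (red). Symbols mark the replicate, with replicate 1 open, and lines mark means. Nrxn2 is higher and Nlgn2 lower in hypothalamus, and the remaining genes lie close together or overlap.

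To compare the tissues, values of each library were scaled so that the shared symbols summed to 1000000, and differences are of mean log2(rescaled value + 1), hippocampus minus hypothalamus. A gene is called higher in 1 tissue here when its lowest library there exceeded the highest library of the other tissue. Of the 8 genes, 3 were higher in hippocampus (Nlgn1, Nlgn2 and Nlgn3) and 1 was higher in hypothalamus (Nrxn2). Of the 10736 symbols whose mean reached 1 FPKM in either tissue, 28.2% had higher levels in hippocampus and 24.4% in hypothalamus, and the counts of 8 genes are not set apart from the table as a whole. The median difference was 0.43 over the 8 genes and 0.05 over all symbols compared. With FPKM as deposited these were 0.13 and −0.21, with 19.0% of symbols higher in hippocampus and 35.2% in hypothalamus. Nlgn2 alone of the 8 genes then stayed higher in hippocampus, and Nrxn2 and Lrrtm3 were higher in hypothalamus.

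Nrxn2, on the presynaptic side, was the member with the clearest excess in hypothalamus. It read 43.9, 35.9, 30.7 and 27.5 FPKM in hippocampus replicates 1 to 4 and 85.2, 145 and 197 FPKM in hypothalamus replicates 1 to 3. All 3 hypothalamus libraries lay above all 4 of hippocampus, and this held under each of the 4 scalings. Leaving out 1 library cannot make separated libraries overlap, and the difference then lay between −1.99 and −1.43. The difference was −1.68 on the log2 scale, a 3.20-fold higher level in hypothalamus, and larger in size than that of 87.5% of symbols compared. Without replicate 1 of both tissues it was −2.12. The spread was wide: the SD of log2(FPKM + 1) was 0.61 in hypothalamus, against a median of 0.25 over all symbols there, and 0.29 in hippocampus, against 0.23. A further Nrxn2 locus in hypothalamus read 2.88, 2.18 and 2.33 FPKM.

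Nrxn3 did not separate the tissues when all libraries were used. It read 37.8, 38.4, 33.7 and 51.1 FPKM in hippocampus and 69.6, 47.6 and 54.6 FPKM in hypothalamus. As deposited, hippocampus replicate 4 lay inside the hypothalamic range, and the difference was −0.50. After rescaling it was −0.21, or −0.03 without replicate 1 of both tissues. Without hippocampus replicate 4 it was −0.33, and the libraries no longer overlapped. A second hippocampal Nrxn3 locus read 0, 11.8, 8.24 and 11.1 FPKM, so replicate 1 was the library listed at 0. With the loci summed, the libraries read 37.8, 50.2, 41.9 and 62.3 FPKM and the difference was 0.00.

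The balance of Nrxn2 and Nrxn3 does not depend on scaling, because it is a ratio within a library, but it depends on which loci are counted. The log2 of Nrxn2 over Nrxn3 was 0.22, −0.10, −0.13 and −0.90 in hippocampus and 0.29, 1.60 and 1.85 in hypothalamus. Nrxn2 thus outweighed Nrxn3 in every hypothalamus library, but hypothalamus replicate 1 differed from hippocampus replicate 1 by little. The means were −0.23 ± 0.47 (SD, n = 4) and 1.25 ± 0.84 (SD, n = 3), and 1.73 in hypothalamus without replicate 1. These ratios use the highest locus. With loci summed, hippocampal Nrxn3 read 37.8, 50.2, 41.9 and 62.3 FPKM beside 43.9, 35.9, 30.7 and 27.5 FPKM of Nrxn2, so Nrxn3 led by more in replicates 2 to 4.

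Among the neuroligins, Nlgn1, whose protein is found at excitatory synapses, was modestly higher in hippocampus. It read 11.7, 17.7, 13.5 and 22.8 FPKM in hippocampus and 13.0, 11.5 and 12.6 FPKM in hypothalamus. As deposited the ranges overlapped, because hippocampus replicate 1 fell within the hypothalamic range, and they separated only once the libraries were rescaled. The difference was 0.65, or 1.57-fold, with 0.34 for FPKM as deposited and 0.83 without replicate 1. Hippocampal libraries varied more than those of hypothalamus, with an SD of log2(FPKM + 1) of 0.40 (above 83.7% of symbols) against 0.09.

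Nlgn3 read 34.2, 38.0, 35.2 and 33.1 FPKM in hippocampus, the steadiest of the 8 genes there with an SD of 0.08 on the log2 scale, and 25.1, 31.2 and 36.0 FPKM in hypothalamus. Its libraries separated after rescaling, with a difference of 0.50 or 1.41-fold, and overlapped with FPKM as deposited, where the difference was 0.20. Without replicate 1 it was 0.38. The log2 of Nlgn3 over Nlgn1, which needs no scaling, was 1.14 ± 0.44 in hippocampus (SD, n = 4) and 1.30 ± 0.31 in hypothalamus (SD, n = 3), and the ranges overlapped. Nlgn3 was thus the more abundant of the pair in all 7 libraries.

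Nlgn2, the neuroligin of inhibitory synapses, showed the largest gap of the family, but the rows compared lie in different parts of the tables. It read 60.4, 54.3, 50.0 and 44.6 FPKM in hippocampus and 0.456, 1.60 and 1.87 FPKM in hypothalamus. The difference was 5.33, or 40.3-fold, and between 4.58 and 5.29 under the other scalings and with loci summed. It was 5.78 with a pseudocount of 0.1 and 4.29 with a pseudocount of 5. Without replicate 1 it was 4.83. Rows of a chromosome are ordered in a block of plus-strand genes and a block of minus-strand genes. RefSeq places Nlgn2 on the minus strand, as given with its sequence above. Of the 20 nearest rows of symbols with 1 locus and a RefSeq strand, all 20 were minus-strand genes around the hippocampal Nlgn2 row and all 20 were plus-strand genes around the hypothalamic one. Senp3, a neighbour of Nlgn2 that is also on the minus strand in RefSeq, is listed in both blocks of the hypothalamus table. Its hypothalamic row in the plus-strand block read 0.540 to 2.12 FPKM and that in the minus-strand block 19.2 to 24.3 FPKM, against 36.2 to 40.5 FPKM at its single row in hippocampus, in the minus-strand block. Chrnb1, also on the minus strand in RefSeq and directly before Nlgn2 in the hypothalamus table, read 15.0, 13.9 and 15.4 FPKM there.

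Such a change of block is uncommon. It affected 360 of 10736 compared symbols (3.35%), and Nlgn2 alone among the 8 genes. Within a table, 6.01% of single-locus symbols in hippocampus and 5.85% in hypothalamus lay among genes of the strand opposite to their RefSeq strand. The libraries of the tissues did not overlap at 156 of those 360 symbols (43.3%), where 28.2% and 24.4% of all symbols were higher in 1 tissue or the other. A difference at least as large as that of Nlgn2 was seen at 9 of the 360 (2.50%), Nlgn2 among them, and at 44 of all 10736 (0.410%). Each table as used here lists Nlgn2 at 1 row, and the part of the change of block in the gap between tissues was not tested. With such symbols left out, 2 of 7 genes were higher in hippocampus, against 28.4% of all symbols. That choice was made after the values were seen.

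**Figure D2:**
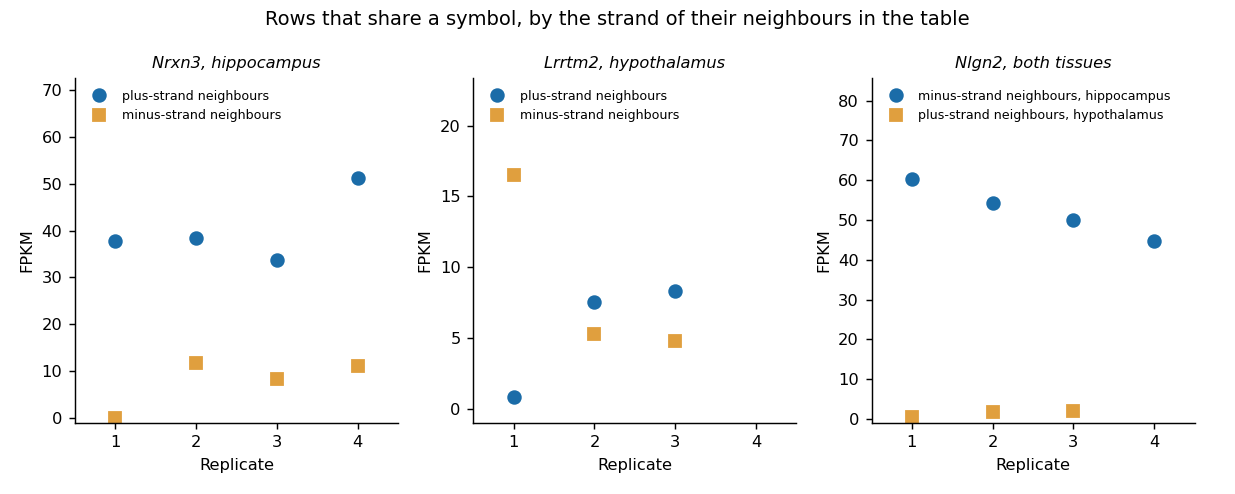
FPKM (vertical) by replicate (horizontal) at rows that share a symbol, with colour and shape giving the strand of most neighbouring rows. Replicate 1 is at 0 at the minus-block row of Nrxn3 in hippocampus, at 0.833 at the plus-block row of Lrrtm2 in hypothalamus, and the Nlgn2 rows of the tissues lie in opposite blocks.

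The LRRTM genes were less abundant than the neurexins in every library and close to each other. Lrrtm2 read 7.95, 10.8, 8.62 and 12.5 FPKM in hippocampus and 16.5, 5.30 and 4.81 FPKM in hypothalamus, so that hypothalamus replicate 1 lay above and the other 2 below all hippocampus libraries. A second hypothalamic Lrrtm2 row, directly after Ctnna1 in the plus-strand block, read 0.833, 7.54 and 8.30 FPKM, which is the reverse order of the libraries. Summed over the rows, Lrrtm2 read 17.3, 12.8 and 13.1 FPKM, an SD of 2.51 in place of 6.60. The direction between tissues turned with this choice: 0.65 for the highest locus, 1.29 without replicate 1 and −0.27 with loci summed.

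In RefSeq, Lrrtm2 lies whole within Ctnna1, which encodes an alpha-catenin, and Lrrtm3 whole within Ctnna3. Whether fragments were assigned by strand is not given in the sources used here, so reads of host and nested gene may not be separable. Ctnna1 read 29.8 to 41.7 FPKM in hippocampus and 44.0 to 62.0 FPKM in hypothalamus, above Lrrtm2 in every library. Ctnna3 was not analysed here. Ctnna2, the host gene of Lrrtm1, read 32.0 to 39.1 FPKM in hippocampus and 22.0 to 33.4 FPKM in hypothalamus.

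Lrrtm3 read 6.87, 7.54, 6.23 and 9.17 FPKM in hippocampus and 11.0, 10.3 and 12.4 FPKM in hypothalamus. These ranges did not overlap as deposited, where the difference was −0.54, or after upper-quartile scaling. They did overlap after rescaling to the same sum, where the difference was −0.29, or −0.27 without replicate 1. Lrrtm4 read 11.9, 15.2, 10.2 and 12.7 FPKM in hippocampus and 13.4, 9.76 and 12.4 FPKM in hypothalamus. Its libraries overlapped, with a difference of 0.36, or 0.07 with FPKM as deposited. When replicate 1 was left out, the difference was 0.48 without overlap. The log2 of Lrrtm3 over Lrrtm4 within a library separated the tissues without any scaling. It was −0.79, −1.01, −0.72 and −0.47 in hippocampus and −0.29, 0.08 and 0.00 in hypothalamus, so Lrrtm4 exceeded Lrrtm3 in each hippocampus library and the genes were nearly level in hypothalamus.

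As shares of the summed FPKM of Lrrtm2, Lrrtm3 and Lrrtm4, the hippocampus held 33.1% ± 2.86 Lrrtm2, 24.9% ± 1.76 Lrrtm3 and 41.9% ± 3.84 Lrrtm4 (SD, n = 4). In hypothalamus the shares depended on how the rows of Lrrtm2 were treated. With the highest locus they were 25.8% ± 12.8 Lrrtm2, 36.5% ± 8.32 Lrrtm3 and 37.7% ± 4.62 Lrrtm4 (SD, n = 3), and with all loci summed they were 38.3% ± 3.52, 30.1% ± 3.34 and 31.5% ± 1.64. The mean Lrrtm2 share thus lay below that of hippocampus with the highest locus, at 18.5% without replicate 1, and above it with loci summed. Lrrtm4 had the largest share in every hippocampus library, between 37.0% and 45.4%. In hypothalamus its share was 32.8% to 41.9% with the highest locus, overlapping hippocampus, and 29.7% to 32.8% with loci summed, below every hippocampus library.

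**Figure D3:**
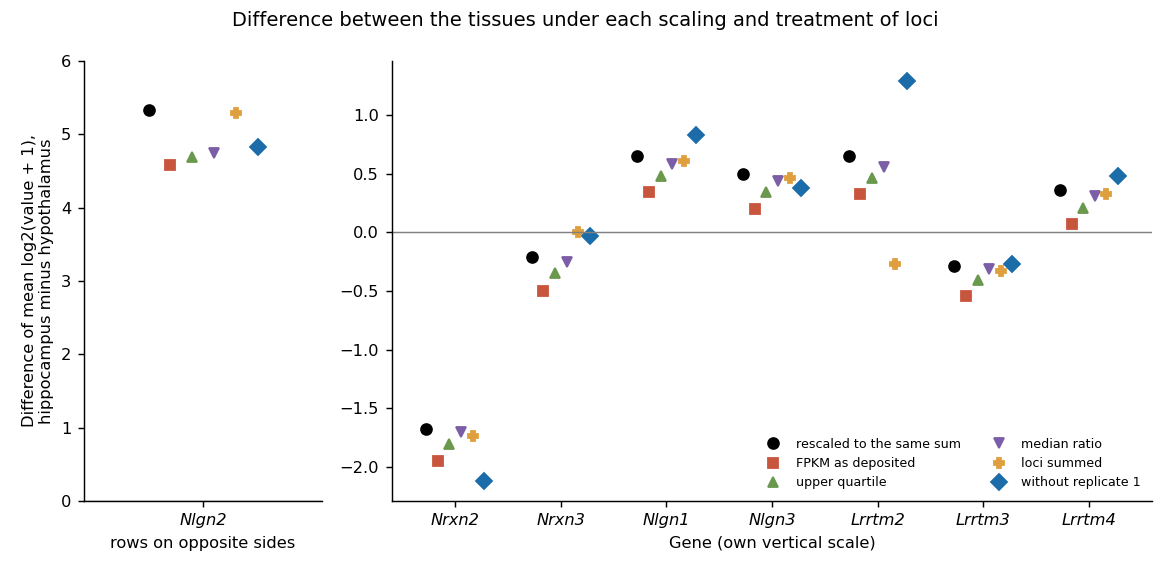
Difference of mean log2(value + 1), hippocampus minus hypothalamus (vertical), of each gene under 4 scalings, with loci summed and without replicate 1. The left panel holds Nlgn2 and the right panel the other genes, on a scale of its own. Nrxn2 lies between −1.68 and −2.12 throughout, Lrrtm2 changes sign with loci summed, and Nrxn3 reaches 0.00.

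Within hippocampus the 8 genes did not vary together. Nrxn2 and Nlgn2 were highest in replicate 1 and lowest in replicate 4, while Nrxn3, Nlgn1, Lrrtm2 and Lrrtm3 were highest in replicate 4. Nlgn1, for example, stood 0.41 below its hippocampal mean in replicate 1 and 0.49 above it in replicate 4 on the log2(FPKM + 1) scale, and Nrxn2 stood 0.36 above in replicate 1 and 0.30 below in replicate 4. Of all 10309 hippocampal symbols of at least 1 FPKM, 30.5% were highest in replicate 1, 33.1% were highest in replicate 4 and 36.7% were lowest in replicate 4, so that counts of 2, 4 and 3 among 8 genes are near these shares. Neuron markers were divided in the same way: Rbfox3 and Tubb3 were highest in replicate 1 and lowest in replicate 4, and Snap25, Syt1 and Stmn2 were highest in replicate 4. The part of any library property in this division was not tested.

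**Figure D4:**
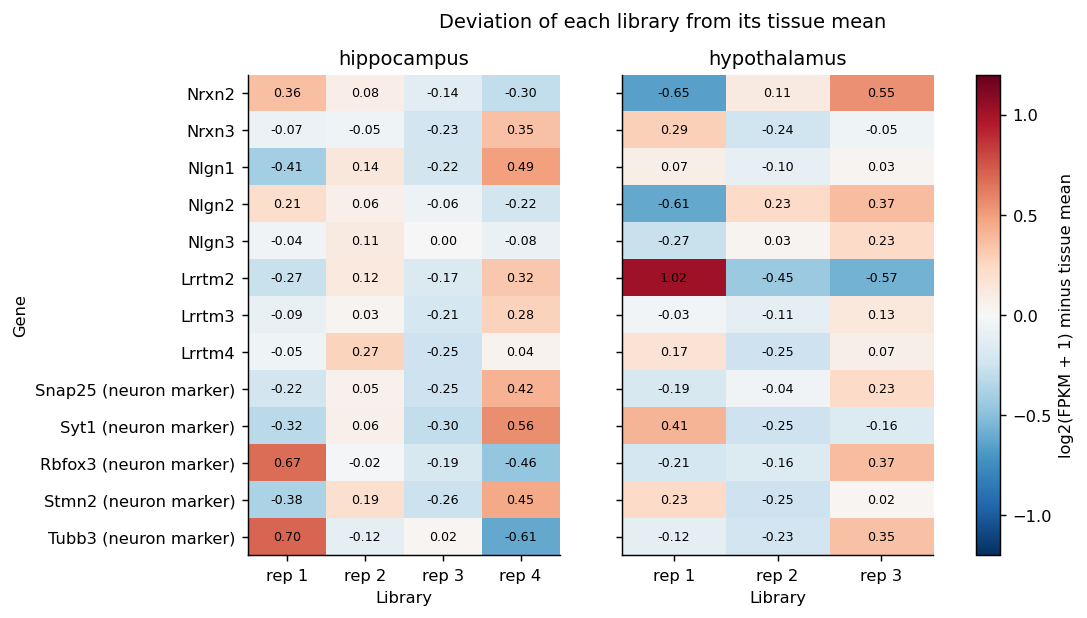
Deviation of log2(FPKM + 1) from the tissue mean (colour and printed value) for the 8 genes and 5 neuron markers (rows) in each library (columns). In hippocampus, replicates 1 and 4 deviate in opposite directions for Nrxn2 and Nlgn2 against Nrxn3, Nlgn1, Lrrtm2 and Lrrtm3.

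The other genes of trans-synaptic adhesion were taken from a list of 43, of which 38 were found in both tables and compared. Of these, 20 were higher in every hippocampus library (52.6%, against 28.2% of all symbols) and 5 in every hypothalamus library (13.2%, against 24.4%), and 13 overlapped. Their median difference was 0.73, against 0.05 over all symbols. With FPKM as deposited, 15 were higher in hippocampus and 7 in hypothalamus, beside 19.0% and 35.2% of all symbols. Without replicate 1 of both tissues the counts were 26 and 6, beside 40.9% and 33.2% of all symbols. Their median difference with FPKM as deposited was 0.39. Several loci were listed for 8 of the 38. Of the general neuron markers Snap25, Syt1, Rbfox3, Stmn2 and Tubb3, 4 of 5 were higher in every hippocampus library after rescaling and Tubb3 in every hypothalamus library. With FPKM as deposited, Rbfox3 (57.9 to 128 in hippocampus, 49.1 to 73.5 in hypothalamus) and Stmn2 (319 to 567, 251 to 352) overlapped. The 5 markers summed to between 1533 and 2407 FPKM in hippocampus and between 1185 and 1516 FPKM in hypothalamus. Sums of glial markers lay the other way with FPKM as deposited. Astrocyte genes (Aqp4, Gja1, Slc1a3 and Aldh1l1) summed to between 405 and 417 FPKM in hippocampus and between 615 and 728 FPKM in hypothalamus, and oligodendrocyte genes (Mbp, Mog and Mag) to between 1959 and 2189 FPKM and between 3277 and 4407 FPKM. Microglia genes (Aif1, Cx3cr1, P2ry12 and Csf1r) summed to between 76.4 and 98.3 FPKM in hippocampus and between 103 and 114 FPKM in hypothalamus. After rescaling, 2 of 4 astrocyte, 1 of 3 oligodendrocyte and 2 of 4 microglia genes lay higher in hypothalamus without overlap, and 0, 1 and 1 did so in hippocampus. Endothelial genes (Cldn5, Pecam1 and Flt1) summed to more in hippocampus, at 77.9 to 125 FPKM against 47.5 to 69.1 FPKM. After rescaling, Cldn5 and Flt1 lay higher in hippocampus without overlap and Pecam1 overlapped. As deposited, mean Pecam1 was 8.07 FPKM in hippocampus and 11.3 FPKM in hypothalamus. Sums of oligodendrocyte precursor genes (Pdgfra and Cspg4) and of meningeal genes (Dcn, Lum, Col1a1 and Igf2) overlapped. The part of cell composition in these counts was not tested, and in bulk tissue fewer cells of a type and less RNA per cell cannot be told apart.

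By role, intracellular scaffolds lay towards hippocampus, with 6 of 8 higher there (5 of 8 with FPKM as deposited) and none higher in hypothalamus under any of the 4 scalings. Of all symbols, 28.2% were higher in hippocampus, or 19.0% with FPKM as deposited, and after rescaling 4 of the 5 neuron markers lay the same way. Cask, a kinase-like scaffold that binds the neurexin tail, read 5.87, 5.79, 6.03 and 6.39 FPKM in hippocampus and 2.23, 1.31 and 1.14 FPKM in hypothalamus, a difference of 2.02 with no overlap. Dlg4, which encodes the scaffold PSD-95 that binds neuroligins, read 194 to 279 FPKM in hippocampus and 94.9 to 164 FPKM in hypothalamus, a difference of 1.21. Gphn, which encodes gephyrin of inhibitory synapses, read 29.7 to 43.7 FPKM against 22.4 to 29.9 FPKM, with a difference of 0.75 and ranges that separated only after rescaling. Among 18 other adhesion genes, 11 were higher in hippocampus and 1, Ptprf, in hypothalamus, and with FPKM as deposited the counts were 8 and 3. The shares of all symbols were 28.2% and 24.4%, or 19.0% and 35.2% as deposited. Ptprf, which encodes a receptor-type tyrosine phosphatase of the presynaptic side, read 14.5, 10.7, 11.3 and 8.85 FPKM in hippocampus and 34.1, 43.4 and 45.7 FPKM in hypothalamus, a difference of −1.54 with no overlap. Cadm2, a synaptic immunoglobulin-type adhesion gene, read 56.2, 72.1, 64.3 and 55.6 FPKM in hippocampus and 28.4, 15.9 and 15.5 FPKM in hypothalamus, a difference of 1.96.

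Of the secreted and membrane ligands of neurexins, 3 of 10 (30.0%) were higher in each tissue, near the 28.2% and 24.4% of all symbols. With FPKM as deposited the counts were 2 and 3, beside 19.0% and 35.2% of all symbols. C1ql3, a secreted C1q-like protein gene, read 75.5, 102, 64.8 and 168 FPKM in hippocampus and 21.8, 7.74 and 12.9 FPKM in hypothalamus, a difference of 3.14. Nxph4, a neurexophilin gene, was on the other side, at 2.44, 0.631, 0.466 and 0.871 FPKM in hippocampus and 16.5, 22.7 and 22.6 FPKM in hypothalamus, a difference of −3.72. Cbln1, which encodes a secreted cerebellin that binds neurexins, read 20.7, 3.70, 11.5 and 9.23 FPKM in hippocampus and 57.5, 64.6 and 79.9 FPKM in hypothalamus, a difference of −2.46. Every hypothalamus library of Cbln1 lay above every hippocampus library. Mdga2, which encodes a protein that covers neuroligins and blocks their binding, read 3.10 to 3.95 FPKM against 8.71 to 14.8 FPKM, a difference of −1.23, and its relative Mdga1 overlapped.

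**Figure D5:**
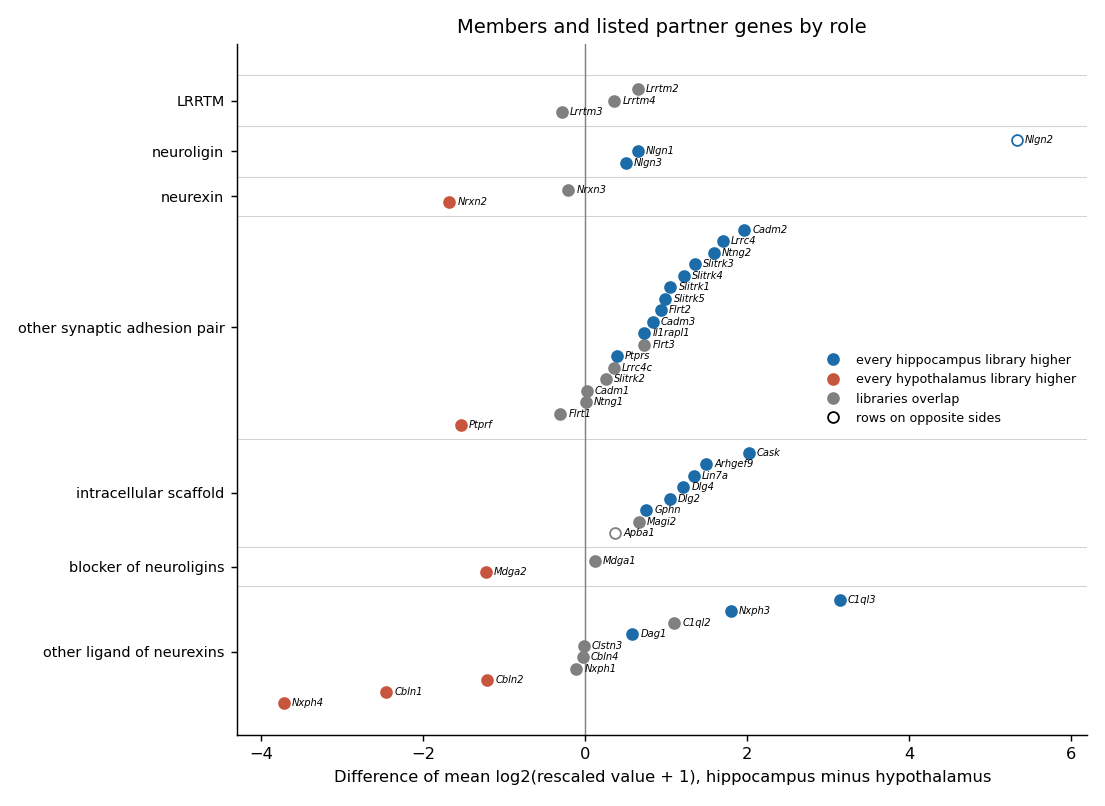
Difference of mean log2(rescaled value + 1), hippocampus minus hypothalamus (horizontal), of the 8 genes and 38 partner genes, grouped by role (vertical). Colour gives the tissue whose libraries all lie higher, and open circles mark Nlgn2 and Apba1, whose rows lie in opposite blocks. Scaffolds lie to the right of 0, and ligands of neurexins lie on both sides.

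The genes whose pattern over the 7 libraries was nearest to that of Nrxn2 were Dlx2, H2afy2 and Afmid, out of 6938 single-locus symbols with at least 5 FPKM in a tissue. Likeness was the root mean square distance of centred log2 values, which was 0.10, 0.13 and 0.13 for these genes against a median of 0.99. They were picked as the smallest distances, so lying below the median follows from the choice. Dlx2, a homeobox transcription factor of forebrain GABA neurons, read 1.86, 1.41, 1.43 and 1.31 FPKM in hippocampus and 4.23, 6.87 and 10.2 FPKM in hypothalamus. Its low hypothalamus replicate 1, as in Nrxn2, follows from picking it by likeness. Dlx2, H2afy2 and Afmid reached a mean of 5 FPKM only in hypothalamus. Nearest to Nlgn2 were Neurod2, Ntan1 and Sec61g, at 0.41, 0.47 and 0.48 against a median of 2.66. Those distances were picked in the same way and rest on Nlgn2 rows in opposite blocks. Neurod2, Ntan1 and Sec61g reached a mean of 5 FPKM only in hippocampus.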

How the data were processed

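Poly-A RNA-seq values of 7 libraries (4 hippocampus, 3 hypothalamus) were used as the FPKM that the authors deposited, 1 table per tissue. Per the submitters' processing notes, TopHat, TopHat2, Bowtie, Bowtie2, Cufflinks and Cuffdiff and the build rn5 were used. Versions, annotation and the strand setting are not given in the sources used here. The tables number their loci separately, so no test was made across them, and depth is unknown.

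Loci not marked OK throughout (86 in hippocampus, 24 in hypothalamus, none of a member) were left out. Shared symbols were scaled to sum to 1000000 per library, and those whose mean reached 1 FPKM in either tissue were compared on log2(value + 1). Blocks of strand were read from 20 neighbouring rows with a RefSeq strand (GRCr8). Computation used Python 3.11.15 and pandas 2.3.3 and was tested on simulated data. Genes to be named were all members, host genes, marker genes (mostly given as sums), the 3 partner genes with the largest difference in each direction among those without overlap and with at least 5 FPKM, and the 3 nearest patterns of 2 members. Dlg4, Gphn, Mdga1, Mdga2, Apba1, Senp3 and Chrnb1 were named after their values were seen. The members and lists were chosen with earlier results of these data known, and 1 further partner gene and 1 further marker gene, left out of the lists as counted, are not reported here. Of the 43 partner genes counted, 5 were not analysed here. Alternatives were other scalings, filters, pseudocounts, summed loci, loci of any status, a 2-fold minimum, leaving out libraries and leaving out symbols in opposite blocks.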

Additional observations from a re-analysis of the deposited data

How the results depend on the processing

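No paired analysis was possible because the comparison between the tissues comes from no test and the labels do not say that a number marks the same rat. Under the settings tried, 92 of 102 counts stayed within 1.5 times the value reported. With FPKM as deposited, 1 of the 8 genes was higher in every hippocampus library and 2 in every hypothalamus library, and upper-quartile scaling also gave 2 for hypothalamus. FPKM as deposited also moved the split of all symbols, of which 2045 were then higher in hippocampus and 3774 in hypothalamus, in place of 3023 and 2621. Requiring a 2-fold difference left 1 of the 8 genes (Nlgn2) and 13 partner genes higher in hippocampus, and 1560 and 1439 of all symbols. These fall by construction. Leaving out 1 library at a time gave 3 to 5 of the 8 genes higher in hippocampus and 1 to 3 higher in hypothalamus. The 5 came without hypothalamus replicate 1, where Lrrtm2 and Lrrtm4 were added, and also without replicate 1 of both tissues, and the share of all symbols higher in hippocampus was then 36.8% and 40.9%. The 3 came without hippocampus replicate 4, where Nrxn3 and Lrrtm3 were added and 26.9% of all symbols were higher in hypothalamus. For these the cause was not tested beyond fewer libraries having to separate. Of the values of single genes and shares, 140 of 147 moved by less than 1 SD between libraries, and none of the 4 genes that separated the tissues changed direction. Leaving out 1 library cannot shift a mean by 1 SD or turn the direction of separated libraries, so those settings could not fail here. Depth is unknown, so low values such as Nlgn2 in hypothalamus carry no counting interval.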
